A study of Sus scrofa with 6 samples.

Results

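The genes described here are 10 genes of gp130 cytokine signaling and its SOCS feedback, chosen by name: the cytokines LIF and IL11, the receptor chains LIFR, OSMR and IL6ST, the transcription factor STAT3, and the feedback inhibitors SOCS1, SOCS2, SOCS3 and CISH. Of these 10 genes, 6 were matched to the 25149 genes listed in the count tables, namely LIF, LIFR, OSMR, IL6ST, STAT3 and SOCS1. SOCS2, SOCS3, CISH and IL11 were not matched with the tables of names at hand and are not analysed here. All 6 matched genes passed the filter on low counts. LIF was the 1 gene paired with its symbol through the study's own list of genes changed in these samples. Its direction here, and counts of the 6 genes that include it, are therefore not independent evidence.

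The cells were neonatal porcine Sertoli cells (NPSC), the somatic cells that nurse germ cells in the seminiferous tubule and protect them from immune attack. They were isolated from testes of wild-type Duroc-Landrace pigs aged 3 to 5 days, collected from 3 litters, and all plates were cultured in DMEM with 10% fetal bovine serum. Complement NPSC (n = 3 libraries) were then held for 90 min in medium mixed 1:1 with pooled human AB serum in which complement was preserved, and baseline NPSC (n = 3 libraries) received DMEM in place of the serum. The comparison addresses how a xenogeneic complement attack alters gene expression of these cells. No group with heat-inactivated human serum is among the 6 libraries, so complement and the other contents of human serum, including any human cytokine, cannot be told apart. The labels do not say which litter went into which library, and p-values therefore measure the spread between these plates.

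In background, gp130, the product of IL6ST, is the shared signal-transducing chain of the interleukin 6 cytokine family. Leukemia inhibitory factor (LIF) binds LIFR, which pairs with gp130, and oncostatin M acts through OSMR with gp130. The receptor pair activates Janus kinases, which phosphorylate STAT3, and STAT3 enters the nucleus and induces genes that include SOCS family members. SOCS1, SOCS3 and CISH in turn bind kinases or receptors and shut the signal off. In the testis, LIF is known as a product of somatic cells and as a survival factor for germ cells. These genes are controlled at several levels, and mRNA counts do not measure receptor protein or STAT3 phosphorylation.

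The libraries held 3641518 to 8371923 counts, and complement replicates 1 and 2 were the shallowest. Counts on 48 olfactory receptor genes, assumed to be silent in these cells, served as a measure of background counts. Their density was 1.18 to 2.15 CPM (counts scaled to a common library size) per kb of exon in baseline NPSC, against 4.01, 4.43 and 1.51 in complement replicates 1, 2 and 3, so that replicates 1 and 2 stood apart from the other 4 libraries. The summed level of the Sertoli cell markers matched, 8 of 9 with none at 0 (AMH was not matched), was 4469 to 7170 CPM in baseline NPSC and 2910.0 to 3529 CPM in complement NPSC. CLU made up most of it, with 3592 to 5996 against 2184 to 2862 CPM, and 2 of the 8 markers had positive LFC, DHH (0.63) and KRT18 (0.61, all complement libraries above baseline), neither called. The sums of Leydig cell markers also did not overlap (936 to 1139 against 713 to 760 CPM, 4 of 6 matched, CYP11A1 at 0), whereas those of macrophage (4 of 6), endothelial (3 of 5), germ cell (3 of 5) and peritubular myoid markers (5 of 5, MYH11 at 0) overlapped. Macrophage markers summed to 64.1 to 94.2 and 52.8 to 79.0 CPM, endothelial markers to 367 to 556 and 256 to 608, germ cell markers to 218 to 365 and 156 to 311, and peritubular myoid markers to 2458 to 3722 and 1912 to 3569. The part of cell makeup in the results below was not tested, and in such bulk samples fewer cells of a type and less RNA per cell cannot be told apart.

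Of the 6 genes, LIF was higher in every complement library than in every baseline library, LIFR and OSMR had positive and STAT3, IL6ST and SOCS1 negative log2 fold changes (LFC), and none passed an adjusted p of 0.05 in the edgeR quasi-likelihood test with Benjamini-Hochberg adjustment. The same test called 0.103% of the 17512 genes tested (18 genes, 16 of them higher). At an unadjusted p under 0.05, 1 of the 6 genes passed (LIF), against 15.2% of all genes tested, and by the Wald test of DESeq2 1 gene was called (LIF, higher), against 0.269% of genes called higher. The median LFC of the 6 genes was 0.02, the same as the median of all genes tested (0.02). Levels below are CPM of the TMM-normalized library size, a scaling that takes most genes to be equal between libraries.

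**Figure D1:**
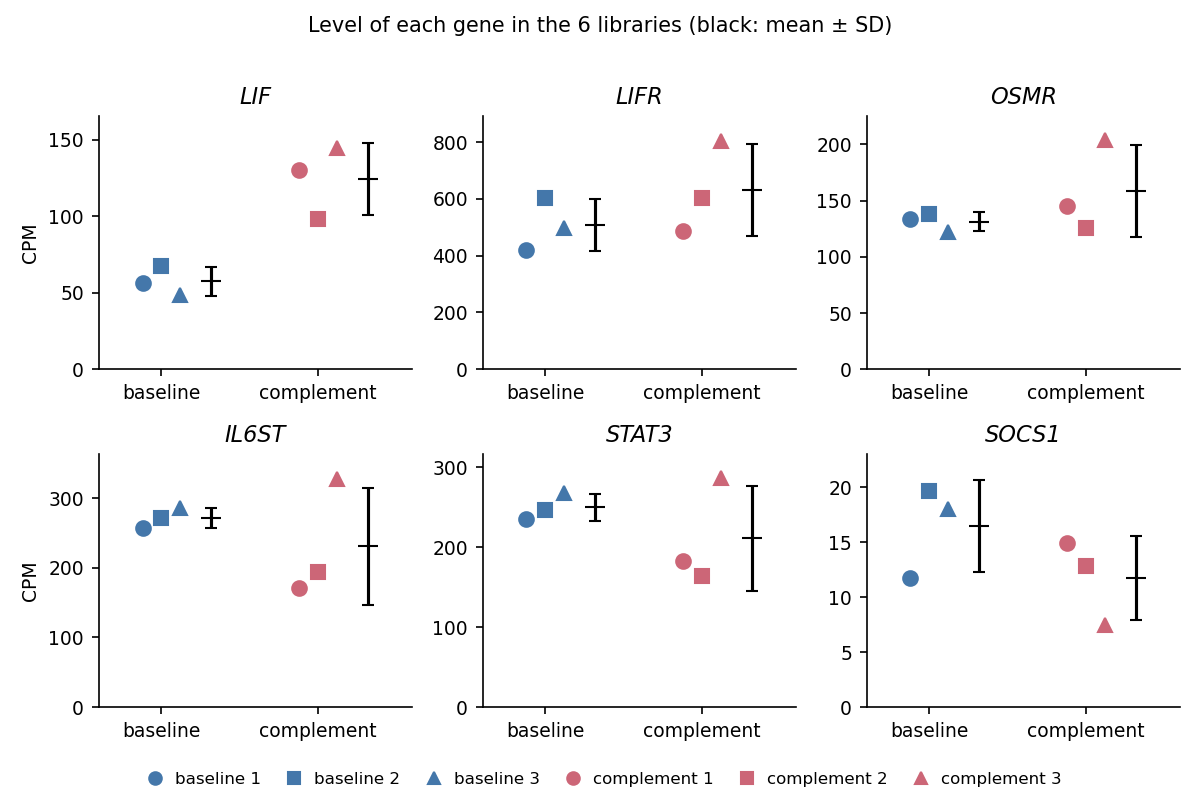
CPM (y axis, linear from 0, a separate scale in each panel) of 6 genes in the 3 baseline (blue) and 3 complement (red) libraries, with black bars for mean ± SD and a marker shape for each replicate number. The groups are apart in LIF, with baseline at 48.6 to 67.5 and complement at 98.0 to 144.5 CPM, and they overlap in the other 5 genes.

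LIF was the one ligand measured among the genes named above. The gene (ENSSSCG00000009996) lies on chr14:50263722-50266807, minus strand, in the coordinates of the files, whose build is not named, with 3 exons and 709 bp of exon in the gene model. Its counts were 389, 436 and 369 in baseline replicates 1, 2 and 3 and 584, 411 and 832 in complement replicates 1, 2 and 3. In CPM, these were 56.4, 67.5 and 48.6 in baseline NPSC and, in complement replicates, 130.0, 98.0 and 144.5. Every complement library was above every baseline library, a pattern that 8.95% of all genes tested also showed. The means were 57.5 ± 9.48 CPM in baseline and 124 ± 23.8 CPM in complement NPSC (SD, n = 3 each), which in the edgeR model was an LFC of 1.11 (SE 0.21, 95% interval 0.66 to 1.56), or 2.16-fold, with an adjusted p of 0.0743. LIF ranked 22 among all genes tested by p and 793 by LFC, just outside the threshold. Expected background, taken as exon length times the olfactory receptor density, made up 1.75% of its counts.

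The call of LIF depended on the model. The Wald test of DESeq2 gave an LFC of 1.06 and an adjusted p of 0.00603. With the olfactory receptor density as a covariate in edgeR the LFC was 1.31 (adjusted p = 0.0152, where 0.343% of all genes were called higher), and with the expected background subtracted from the counts it was 1.38 (adjusted p = 0.0172, where 0.199% were called higher). With 1 library left out, LIF was called by edgeR without baseline replicate 1 (adjusted p = 0.0324), complement replicate 2 (0.0448) or complement replicate 3 (0.0382), in fits that called 1.8%, 0.107% and 10.1% of all genes. It was not called without baseline replicate 2 (0.266), baseline replicate 3 (0.483) or complement replicate 1 (0.145). Its LFC stayed between 0.96 and 1.38 over all 15 alternatives, 10 of which called it.

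LIFR, OSMR and IL6ST encode the receptor chains, and all 3 lie on chromosome 16. LIFR (ENSSSCG00000016850, chr16:24923878-25016513, minus strand) and OSMR (ENSSSCG00000016851, chr16:25306092-25348992, plus strand) are neighbours that point away from each other, 289.6 kb apart with no gene listed between them. IL6ST (ENSSSCG00000016916) lies farther along, on chr16:37476140-37522640, plus strand. None of the 3 overlaps another listed gene. The model of LIFR has 12591 bp of exon, 61.7% of it in 1 block, against 4660 bp for OSMR and 2995 bp for IL6ST.

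LIFR, the chain that binds LIF, had 2899, 3905 and 3777 counts in baseline and 2188, 2522 and 4636 in complement replicates 1, 2 and 3. Its levels were 420.3, 605 and 498 CPM in baseline NPSC and 487, 602 and 805 CPM in complement NPSC. Complement replicate 3 was the highest library, and the other complement libraries lay within the baseline range. The means were 507 ± 92.5 and 631 ± 161 CPM, and the LFC of 0.32 (SE 0.28, 95% interval -0.28 to 0.91) did not pass the test (edgeR adjusted p = 0.544).

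OSMR, the chain that binds oncostatin M, had 919, 893 and 926 counts in baseline and 653, 525 and 1174 in complement replicates 1, 2 and 3. These were 133, 138 and 122 CPM in baseline NPSC and 145, 125 and 204 CPM in complement NPSC. Again complement replicate 3 was highest, and complement replicate 2 lay among the baseline libraries. The means were 131 ± 8.31 and 158 ± 40.9 CPM, with an LFC of 0.27 (SE 0.22, 95% interval -0.20 to 0.74, edgeR adjusted p = 0.512). Expected background was 6.84% of the counts of OSMR and 4.72% of those of LIFR.

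Whether the groups overlapped in LIFR and OSMR depended on the scaling. In CPM of the plain library total, LIFR was 427, 545 and 451 in baseline NPSC and, in complement replicates, 557, 693 and 724, and OSMR was 135, 125 and 111 against 166, 144 and 183. On that scale LIF, LIFR and OSMR, 3 of the 6 genes, were above every baseline library in all complement libraries, a pattern of 8.86% of all genes tested. With the expected background subtracted, the same 3 genes showed it (7.46% of all genes tested), although neither LIFR nor OSMR was called under any of the 15 alternatives by edgeR or DESeq2 (LFC 0.07 to 0.70 for LIFR and 0.02 to 0.55 for OSMR). LIF is in both counts through the study's own list of changed genes.

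IL6ST, which encodes gp130, had 1771, 1751 and 2169 counts in baseline and 766, 815 and 1885 in complement replicates 1, 2 and 3. Its levels were 257, 271 and 286 CPM in baseline NPSC and 170.5, 194 and 327 CPM in complement NPSC. The baseline libraries were close to each other, while complement NPSC held both the lowest and the highest levels. The means were 271 ± 14.5 and 231 ± 84.5 CPM, and the LFC was -0.23 (SE 0.26, 95% interval -0.79 to 0.32, edgeR adjusted p = 0.624). Without complement replicate 3, edgeR called IL6ST lower (LFC -0.60, adjusted p = 0.0479), in a fit that called 10.1% of all genes, while with the olfactory receptor density as covariate its LFC was 0.18 (adjusted p = 0.939).

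Since these levels moved with the scaling, ratios between chains were taken within each library, where the scaling cancels. These ratios were chosen after the values were seen. LIFR to IL6ST, in CPM per kb of exon, was 0.389, 0.530 and 0.414 in baseline replicates 1, 2 and 3 and 0.679, 0.736 and 0.585 in complement replicates 1, 2 and 3. OSMR to IL6ST was 0.334, 0.328 and 0.274 in baseline NPSC and, in complement replicates, 0.548, 0.414 and 0.400. Both ratios were higher in every complement library than in any baseline library. The mean of LIFR to IL6ST was 0.445 ± 0.0753 in baseline and 0.667 ± 0.0763 in complement NPSC (SD, n = 3 each), a log2 difference of 0.59. For OSMR to IL6ST the means were 0.312 ± 0.0326 and 0.454 ± 0.0815, a log2 difference of 0.53. LIFR to OSMR overlapped between the groups, at 1.43 ± 0.235 and 1.49 ± 0.270 (log2 difference 0.06).

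**Figure D2:**
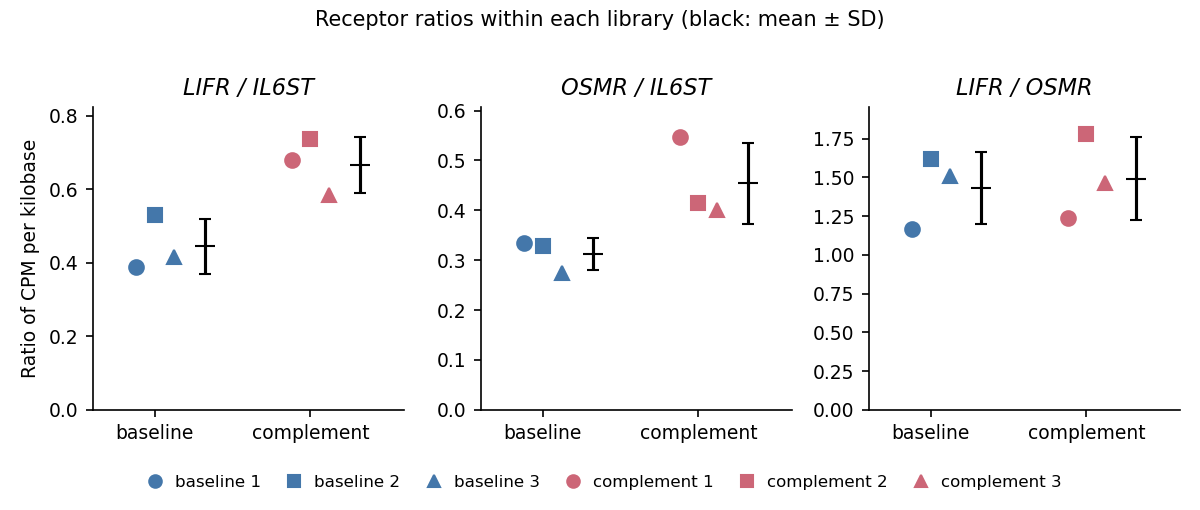
Ratio of CPM per kb of exon (y axis, linear from 0) between receptor genes within each of the 3 baseline (blue) and 3 complement (red) libraries, with mean ± SD in black and a marker shape for each replicate number. LIFR to IL6ST and OSMR to IL6ST are higher in all 3 complement libraries, with means of 0.445 and 0.667 and of 0.312 and 0.454, and LIFR to OSMR overlaps.

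For both ratios the exact two-sided permutation test gave p = 0.1, the smallest that 3 against 3 libraries allow, and over the 15 ratios among the 6 genes the adjusted p was 0.167. Without each library in turn, the log2 difference was 0.50 to 0.73 for LIFR to IL6ST and 0.39 to 0.62 for OSMR to IL6ST. The lack of overlap in these subsets follows from that in all 6 libraries and adds no support. With the expected background subtracted, the log2 differences were 0.59 and 0.51. Of all other genes tested, 6.12% had a ratio to IL6ST that was higher in every complement library, as LIF, LIFR and OSMR had. Over the 15 ratios, 9 did not overlap between the groups, 5 of them with LIF. Ratios of all other genes tested to LIF did not overlap, in either direction, in 62.9% of genes, and ratios to LIFR, OSMR, SOCS1, STAT3 and IL6ST in 26.2%, 26.5%, 20.7%, 9.2% and 6.94%. The other 4 set LIFR or OSMR against IL6ST or STAT3, with log2 differences of -0.58 for STAT3 to LIFR and -0.53 for STAT3 to OSMR.

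STAT3, the transcription factor that gp130 activates, lies on chr12:20711742-20775571, minus strand (ENSSSCG00000017403, 2476 bp of exon), between STAT5A at 4.36 kb and STAT5B at 60.3 kb. It had 1620, 1592 and 2031 counts in baseline and 820, 689 and 1645 in complement replicates 1, 2 and 3. These were 235, 246 and 268 CPM in baseline NPSC and 183, 164 and 286 CPM in complement NPSC. As for IL6ST, complement replicates 1 and 2 were lowest and complement replicate 3 highest, so the groups overlapped. The means were 249.6 ± 16.6 and 211 ± 65.5 CPM, and the LFC was -0.24 (SE 0.25, 95% interval -0.77 to 0.28, edgeR adjusted p = 0.589). Without complement replicate 3 the LFC was -0.55 (adjusted p = 0.0546), and with the olfactory receptor density as covariate it was 0.14 (adjusted p = 0.956).

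The ratio of STAT3 to IL6ST within each library overlapped between the groups. In CPM per kb it was 1.11, 1.10 and 1.13 in baseline and 1.29, 1.02 and 1.06 in complement replicates 1, 2 and 3, with means of 1.11 ± 0.0174 and 1.12 ± 0.149. Both genes were lowest in the 2 libraries with the highest olfactory receptor density, 4.01 and 4.43 CPM per kb, and expected background accounted for 2.20% of STAT3 and 2.44% of IL6ST counts. With the expected background subtracted from the counts, the LFC was -0.03 for both STAT3 (edgeR adjusted p = 0.942) and IL6ST (adjusted p = 0.952). The filter and the scaling were computed anew in that fit, which tested 15077 genes. STAT3 in complement replicate 1 went from 183 to 228 CPM there although counts were removed, so the shift includes a change of scaling. The part of background in the levels of these genes was not tested. Of the 6 genes, 0 had every complement library below every baseline library, a pattern of 8.14% of all genes tested, while without complement replicate 3 both STAT3 and IL6ST had it, a pattern of 26.8% of all genes in those 5 libraries.

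**Figure D3:**
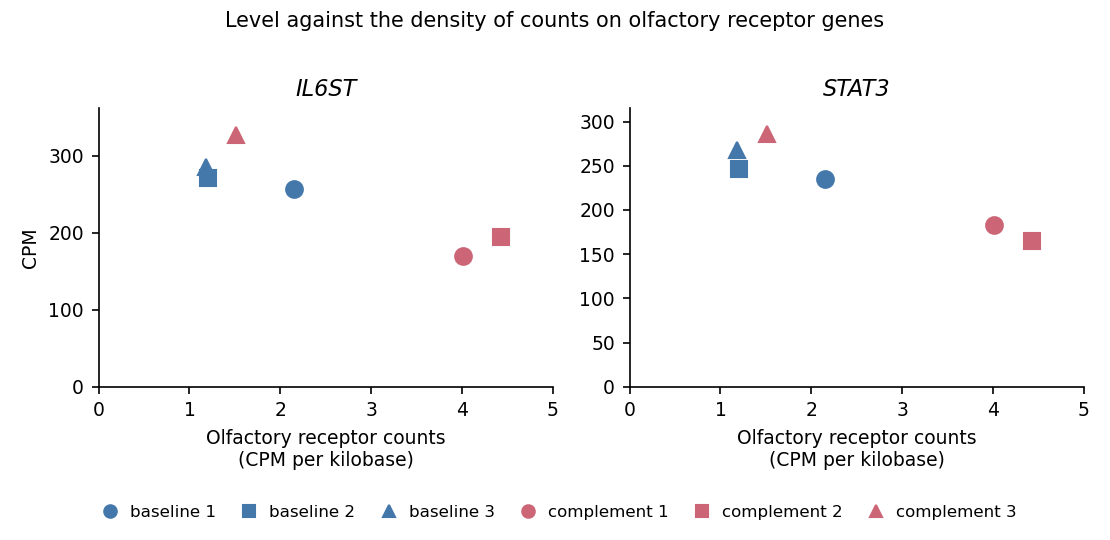
CPM (y axis, linear from 0) of IL6ST and STAT3 against olfactory receptor density (x axis, CPM per kb of exon) in the 3 baseline (blue) and 3 complement (red) libraries. Complement replicates 1 and 2, at densities of 4.01 and 4.43, have the lowest levels of both genes, and complement replicate 3, at 1.51, has the highest.

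SOCS1, the feedback inhibitor that binds Janus kinases, was the least abundant of the 6 genes. It is a gene of 1 exon of 832 bp on chr3:32671707-32672538, plus strand (ENSSSCG00000027855), with 81, 127 and 137 counts in baseline and 67, 54 and 43 in complement replicates 1, 2 and 3. The levels were 11.7, 19.7 and 18.1 CPM in baseline NPSC and 14.9, 12.9 and 7.47 CPM in complement NPSC. Baseline replicate 1 lay below 2 of the complement libraries, and the lowest level was in complement replicate 3, the complement library with the highest STAT3, IL6ST and LIF levels. The means were 16.5 ± 4.18 and 11.8 ± 3.85 CPM, with an LFC of -0.50 (SE 0.31, 95% interval -1.16 to 0.17, edgeR adjusted p = 0.418). Counting error alone was 8.54% to 15.2% per library, against 3.47% to 5.21% for LIF, and expected background was 12.2% of its counts over all libraries. By library, the expected background was 12.2, 7.15 and 8.24 counts in baseline and 13.1, 13.4 and 8.04 in complement replicates 1, 2 and 3. This was a larger part of the SOCS1 counts in complement NPSC. The LFC of SOCS1 was negative under all 15 alternatives, from -0.74 to -0.27, and passed the test in none of them.

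Levels were compared between genes in CPM per kb of exon, which depends on the gene models, LIF being short and LIFR long. In baseline NPSC the order of mean levels was STAT3 (101), IL6ST (90.6), LIF (81.1), LIFR (40.3), OSMR (28.1) and SOCS1 (19.8). Neighbours in this order overlapped over the 3 libraries for STAT3 and IL6ST (94.9 to 108 against 85.7 to 95.4) and for IL6ST and LIF (LIF 68.6 to 95.2), and did not for the others. In complement NPSC LIF came first in all 3 libraries, at 183, 138 and 204 CPM per kb against 73.7, 66.4 and 115 for STAT3. The mean levels there were 175 for LIF, 85.2 for STAT3, 77.1 for IL6ST, 50.1 for LIFR, 33.9 for OSMR and 14.1 for SOCS1. In these means neighbours from STAT3 down to OSMR overlapped over the 3 complement libraries (66.4 to 115, 56.9 to 109, 38.7 to 64.0 and 26.9 to 43.8), and SOCS1 (8.98 to 17.9) stood below. LIF thus stood below STAT3 and IL6ST by mean in baseline NPSC and above both in complement NPSC, and the order of the other 5 genes by mean was the same.

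**Figure D4:**
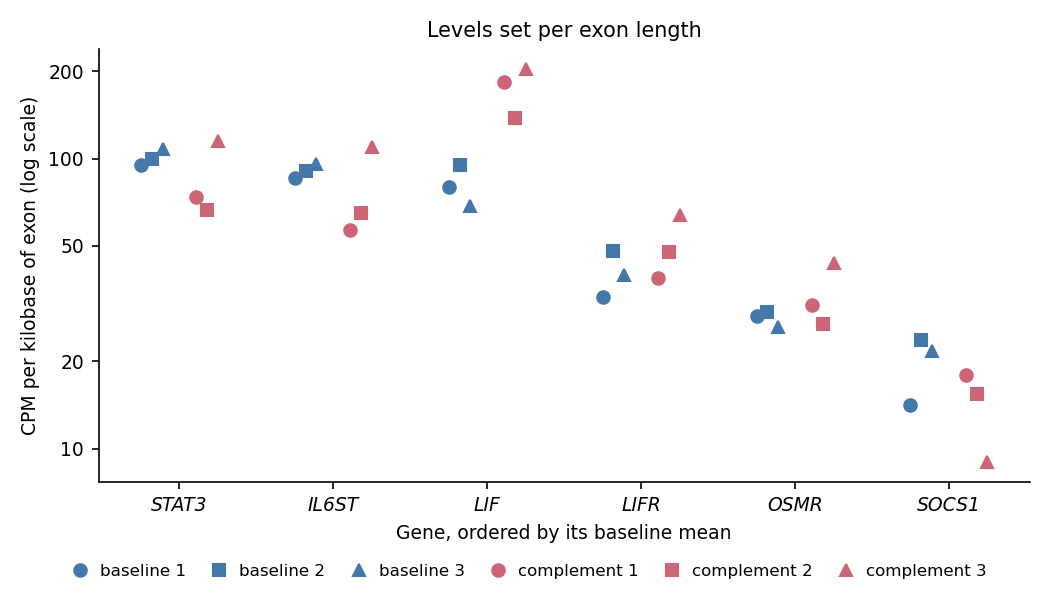
CPM per kb of exon (y axis, log scale) of the 6 genes, ordered by their baseline mean, in the 3 baseline (blue) and 3 complement (red) libraries. In baseline NPSC the mean of LIF (81.1) is below those of STAT3 (101) and IL6ST (90.6), and in complement NPSC (175) it is above theirs (85.2 and 77.1).

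The rest of the pathway was read from 8 lists of 53 genes in all, of which 42 were matched and 38 tested. By edgeR, 2 of the 38 genes were called, both higher, against the 0.103% of all genes given above, and 6 had an unadjusted p under 0.05, a share near the 15.2% of all genes. The lists were chosen with earlier results of these data known, and both called genes are in the study's own list of changed genes. The count of 2 was therefore not read as a result about the pathway. The median LFC over the 38 genes was 0.12, with 25 positive and 13 negative values. The complement libraries were all above baseline in 4 genes and all below in 2, against 8.95% and 8.14% of all genes. IL6, LEPR and CSF3R are listed at 0 counts in all 6 libraries, which was not read as a level because olfactory receptor genes had counts.

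Among the other ligands of the family, 0 of 4 tested genes (of 8 searched) were called, and all 4 had positive LFC. CLCF1, a cytokine that acts through the CNTF receptor, was at 40.2 ± 9.19 CPM in baseline and 56.7 ± 15.1 in complement NPSC (LFC 0.50, edgeR adjusted p = 0.319). EBI3, a subunit of interleukin 27, was at 9.97 ± 3.61 and 13.6 ± 4.83 CPM (LFC 0.44, edgeR adjusted p = 0.486).

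The receptor chains that confer ligand specificity were also not called, 0 of 4. IL6R, which binds interleukin 6, was at 66.1 ± 16.9 and 66.7 ± 7.97 CPM (LFC 0.01, edgeR adjusted p = 0.980). IL27RA, the receptor for interleukin 27, had an LFC of 0.18 (adjusted p = 0.599) and CNTFR, the receptor for ciliary neurotrophic factor, one of 0.33 (adjusted p = 0.523). Of the related cytokine receptors that signal through JAK2 or STAT5, 0 of 5 tested were called. PRLR, the prolactin receptor, had the largest LFC of these, 1.10 (SE 0.36, adjusted p = 0.267), with 5.26 ± 1.14 CPM in baseline and 11.3 ± 3.80 in complement NPSC, and its libraries did not overlap. Expected background amounted to 54.3% of PRLR counts, and its 2 highest libraries were complement replicates 1 and 2. The LFC of PRLR was 1.66 with the expected background subtracted (edgeR adjusted p = 0.484). With the olfactory receptor density as covariate it was 0.46 (adjusted p = 0.923). The part of background in this difference was not tested. CSF2RB, the shared beta chain of the GM-CSF receptor family, had an LFC of -0.15 (adjusted p = 0.707).

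None of the 4 Janus kinases was called. JAK1, the main kinase of gp130, was at 72.4 ± 7.98 and 60.3 ± 12.9 CPM (LFC -0.26, edgeR adjusted p = 0.493), and TYK2 at 184 ± 7.17 and 174 ± 44.7 CPM (LFC -0.08, adjusted p = 0.862). JAK3, known for its role with the common gamma chain of lymphocytes, had an LFC of 0.44 (adjusted p = 0.351). Of the other STAT genes, 0 of 4 tested were called. STAT5A, next to STAT3 on chromosome 12, was at 175 ± 35.2 and 143 ± 19.8 CPM (LFC -0.29, adjusted p = 0.493), and STAT2, a mediator of interferon signals, at 69.8 ± 5.88 and 65.8 ± 2.76 CPM (LFC -0.09, adjusted p = 0.799). STAT4 had an LFC of 0.32 (adjusted p = 0.607), with an expected background of 78.0% of its counts. Its LFC was -1.33 with that background subtracted and -0.10 with the olfactory receptor density as covariate, so its direction depended on the processing.

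Of the other inhibitors, SOCS5 and SOCS7 were the other 2 SOCS genes tested and neither was called. SOCS5 was at 49.3 ± 8.34 and 37.8 ± 10.9 CPM (LFC -0.38, edgeR adjusted p = 0.402), and SOCS7 at 25.6 ± 1.53 and 28.1 ± 1.71 CPM (LFC 0.13, adjusted p = 0.709). Of the phosphatases and PIAS proteins, 0 of 7 tested were called. PTPN11, the phosphatase SHP2 that SOCS3 competes with on gp130, was at 260.2 ± 39.8 and 233 ± 81.6 CPM (LFC -0.16, adjusted p = 0.741), and PTPN1 at 120.1 ± 13.4 and 105 ± 20.1 CPM (LFC -0.19, adjusted p = 0.613). PTPN6, the phosphatase SHP1, had an LFC of 0.34 (adjusted p = 0.502).

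Both called genes came from the list of genes known to be induced by STAT3, where 2 of 8 tested genes were higher and 0 lower. JUNB, an AP-1 transcription factor, was at 193, 195 and 186 CPM in baseline and 483, 408 and 653 CPM in complement replicates 1, 2 and 3. Its mean rose from 191 ± 4.79 to 515 ± 126 CPM, an LFC of 1.43 (SE 0.25, edgeR adjusted p = 0.0455). VEGFA, the angiogenic growth factor, was at 52.0, 48.3 and 37.6 CPM in baseline and 102, 105 and 122 CPM in complement NPSC, and rose from 46.0 ± 7.52 to 109.5 ± 10.7 CPM (LFC 1.25, SE 0.20, adjusted p = 0.0206). In both genes all 3 complement libraries were above all 3 baseline libraries. Both are also in the study's own list of genes changed in these samples, which is not independent evidence of their direction, and both are known to respond to signals other than STAT3. Without baseline replicate 2 or baseline replicate 3 neither was called (adjusted p = 0.387 and 0.300 for JUNB, 0.191 and 0.195 for VEGFA), and without complement replicate 1 JUNB was not called (adjusted p = 0.0758). In the fits without baseline replicate 2 or 3 the LFC stayed at 1.43 and 1.40 for JUNB and at 1.27 and 1.11 for VEGFA.

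The other 6 tested genes of that list were not called. TIMP1, an inhibitor of metalloproteinases, was at 372 ± 102 and 401 ± 148 CPM (LFC 0.11, edgeR adjusted p = 0.854). FOS, the partner of JUNB in AP-1, was at 152 ± 69.4 CPM in baseline and 152 ± 29.2 CPM in complement NPSC (LFC 0.00, adjusted p = 1.000), a gene named here after its values were seen. BCL6, a repressor of transcription, was at 109.9 ± 18.6 and 78.5 ± 9.70 CPM (LFC -0.48, adjusted p = 0.304) with all complement libraries below all baseline libraries, and was likewise named after its values were seen.

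**Figure D5:**
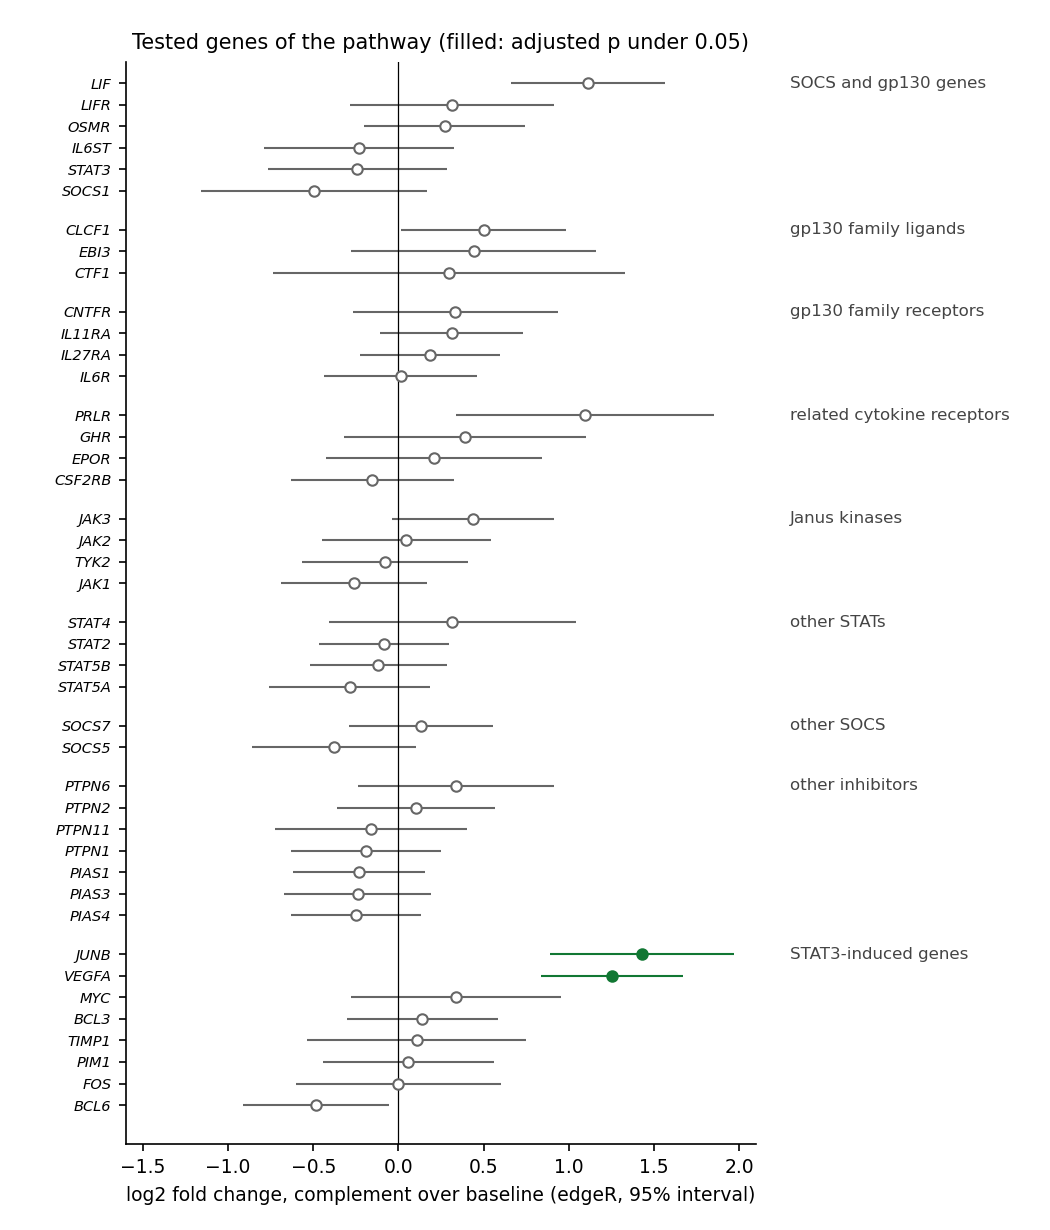
LFC of complement over baseline NPSC (x axis, log2 scale, edgeR) with 95% intervals for the 6 genes and 36 of the 38 tested genes of the pathway lists, whose names stand at the right. The filled points are JUNB (1.43) and VEGFA (1.25), the genes with an adjusted p under 0.05, and LIF (1.11) lies next to them with an open point.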

How the data were processed

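Bulk RNA sequencing was performed on 6 libraries of neonatal pig Sertoli cells, 3 of baseline NPSC and 3 of complement NPSC, grouped by the labels. The authors deposited raw counts per gene and library, without normalization, with the coordinates of each gene and a length column of summed exon bp. Trimmomatic 0.36, STAR 2.5.2b and featureCounts of Subread 1.5.2 are named in the submitters' processing notes. The genome build and the strand setting of the counting are not given in the sources used here, and reads of overlapping genes could not be assigned by strand, although none of the 6 genes overlaps another listed gene.

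Of 25149 identifiers, 11804 were paired with a symbol by the table of names, and LIF by the study's own list. The 10 genes and the pathway lists were chosen with earlier results of these data known. From each list, called genes, the 2 genes with the highest mean CPM per kb and the 1 with the largest absolute LFC were named, except for a few genes that are not reported here. Counts were tested with edgeR 4.0.16 in R 4.3.3 (filterByExpr, TMM, glmQLFit and glmQLFTest), with Benjamini-Hochberg adjustment over all 17512 genes tested and an adjusted p of 0.05 as the threshold. SE were taken from the LFC and its F statistic, and 95% intervals from the t distribution. The study's methods name the Wald test of DESeq2, which was run as an alternative (DESeq2 1.42.0). Other alternatives were DESeq2 size factors, upper-quartile factors, a fit of all genes with 1 count, a minimum of 10 in each library, a block for the replicate number, leaving out each library, and the olfactory receptor density as a covariate or subtracted. The density rests on 48 genes with 45945 bp of exon. After its subtraction from the counts, the filter and the TMM factors were computed anew. Ratios were compared with exact permutation tests. Library totals were 3641518 to 8371923, and intervals of single counts cover counting error only. Figures were made in Python 3.11.15 with matplotlib 3.10.9.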

Additional observations from a re-analysis of the deposited data

How the results depend on the processing

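The count of the 6 genes called, 0 by edgeR, was 1 (LIF) with the DESeq2 Wald test, upper-quartile normalization, no filter, olfactory receptor density as covariate or expected background subtracted, 0 with DESeq2 size factors or at least 10 counts in every library, and 0 to 2 without 1 library each (2 without complement replicate 3, LIF and IL6ST, where 10.1% of all genes were called). Upper-quartile normalization moved the median LFC of all genes to 0.13. The count of genes not overlapping, 1, was 3 by library total and 3 with background subtracted, and 1 to 3 without 1 library each, where 20.6% to 57% of all genes did not overlap (17.1% with all 6 libraries). The covariate reversed STAT3 (LFC 0.14) and IL6ST (0.18), and background subtraction gave -0.03 for both, with neither called, and the cause was not tested. The count of pathway genes called, 2, was 1 with DESeq2 size factors (VEGFA), and 0 to 3 without 1 library each (0 without baseline replicate 2 or 3, 1 without complement replicate 1, 3 without complement replicate 3, with PRLR as the added gene, in the fit that called 10.1% of all genes). These last alternatives, and those of the ratios, were chosen after seeing the data.

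Replicate numbers were not shown to pair the libraries. The correlations of deviations from the group means were 0.456, 0.0302 and 0.482 for numbers 1, 2 and 3. Pairs of unlike numbers gave -0.501 to 0.284, all below the values of numbers 1 and 3. Baseline replicate 2, however, correlated best with complement replicate 3 (0.0665), so the evidence was mixed. With a replicate block, 1 of the 6 genes was called by edgeR (LIF, adjusted p = 1.64e-07, with 14.4% of all genes called) and 1 by DESeq2 (LIF, 0.00114, with 2.9%), and the pathway genes called by edgeR with the block were 6, among them CLCF1, PRLR, JUNB and VEGFA (higher) and BCL6 (lower). Depth limits SOCS1 most, with 43 to 137 counts per library.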
